A study of Mus musculus with 25 samples.

Results

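The voltage-gated sodium channel alpha subunits other than Scn1a were followed in mouse hippocampus: Scn2a1 (current symbol Scn2a), Scn3a, Scn7a, Scn8a and Scn9a. They were taken by symbol from count tables of 24421 genes, so 5 of 24421 genes are described here. All 5 were among the 15912 genes that passed the filter on low counts. Each alpha subunit is a large protein that forms the sodium-selective pore and opens with depolarization, and in neurons these channels start and carry the action potential. Scn2a1 encodes Nav1.2 and Scn8a encodes Nav1.6, the main channels of excitatory neurons, and at many axon initial segments and nodes Nav1.6 takes the place of Nav1.2 as the brain matures. Scn3a encodes Nav1.3, best known from the embryonic brain. Scn9a encodes Nav1.7, best known from peripheral sensory and sympathetic neurons. Scn7a encodes Nax, an atypical member that responds to sodium concentration and is not opened by voltage in the usual way.

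The study sequenced hippocampal RNA from wild-type mice and mice with 1 disrupted copy of Scn1a (Scn1a+/-), a model of Dravet syndrome, at postnatal days 14 (P14) and 24 (P24). The backgrounds were 129S6/SvEvTac (129S6), which resists seizures, and a cross of it with C57BL/6, [129S6/SvEvTac x C57BL/6]F1 (F1), which is prone to them. At P14 there were 2 wild-type and 3 Scn1a+/- libraries in 129S6, and 3 and 3 in F1. The P24 libraries were, by their labels, 3 wild-type and 3 Scn1a+/- in 129S6, and in F1 3 wild-type, 2 Scn1a+/- and 3 from Scn1a+/- mice with seizures (the seizure group). The labels name no treatment, do not say how long before collection a seizure occurred and do not describe the disrupted allele. Each library was a pool of hippocampi, from 3 to 4 mice in the seizure group and from 12 to 16 in all other groups, so seizures and pool size cannot be told apart. The labels give no litter or day for the pools, so the p-values here speak only of variation from pool to pool.

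Library totals ran from 7436442 to 25520050 counts. Scn1a, the targeted gene, stood lower in the Scn1a+/- group mean than in wild type in P14 129S6, P14 F1 and P24 F1, at 98.1 against 111, 91.1 against 103 and 104 against 127 CPM (counts per unit of sequencing depth, with the library total adjusted by TMM). In P24 129S6 it went against the labels, at 140.1 CPM where the label is Scn1a+/- and 110.1 where it is wild type. The names under which these count tables were deposited also give the other genotype. Groups here follow the titles and characteristics, so that genotype comparison is given as labelled. The opposite naming is used only where the text says so. Markers of hippocampal pyramidal neurons were present in every library, with a summed level of 1069 to 1407 CPM over 10 genes. In whole hippocampal tissue, fewer cells of a type and less RNA per cell cannot be told apart.

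Of the 5 genes, 4 lie with Scn1a in a cluster of 1328 kb on chromosome 2 (chr2:65457118-66784910, GRCm38.p6, the assembly of mm10), in the order Scn3a, Scn2a1, Scn1a, Scn9a and Scn7a. Between them stand 3 other protein-coding genes, Csrnp3, Galnt3 and Ttc21b. Scn8a lies alone at chr15:100869863-101045938. Promoter windows of 300 bases, 250 before to 50 after an annotated start, were listed in RefSeq (GRCm38.p6) for Scn2a1, Scn7a, Scn8a and Scn9a. The windows below belong to the gene whose transcript rose with age and to 2 genes that fell in the seizure group, and they are shown for their unequal CpG content. CpG pairs are in capitals, and the strand read is that of the gene.
Scn8a, chr15:100870395-100870694, plus strand: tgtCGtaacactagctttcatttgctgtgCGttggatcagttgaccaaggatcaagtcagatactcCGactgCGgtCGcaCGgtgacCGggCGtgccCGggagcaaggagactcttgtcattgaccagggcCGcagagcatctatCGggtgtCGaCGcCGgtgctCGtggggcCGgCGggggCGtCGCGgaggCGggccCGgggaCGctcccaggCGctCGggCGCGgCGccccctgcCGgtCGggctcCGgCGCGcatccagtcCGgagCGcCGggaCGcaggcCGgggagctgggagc
Scn2a1, chr2:65620519-65620818, plus strand: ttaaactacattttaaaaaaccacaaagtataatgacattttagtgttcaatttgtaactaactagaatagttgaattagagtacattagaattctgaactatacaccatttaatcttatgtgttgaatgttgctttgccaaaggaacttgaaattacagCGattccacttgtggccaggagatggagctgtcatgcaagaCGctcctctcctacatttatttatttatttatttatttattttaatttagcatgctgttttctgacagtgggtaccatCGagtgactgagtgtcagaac
Scn9a, chr2:66634913-66635212, minus strand: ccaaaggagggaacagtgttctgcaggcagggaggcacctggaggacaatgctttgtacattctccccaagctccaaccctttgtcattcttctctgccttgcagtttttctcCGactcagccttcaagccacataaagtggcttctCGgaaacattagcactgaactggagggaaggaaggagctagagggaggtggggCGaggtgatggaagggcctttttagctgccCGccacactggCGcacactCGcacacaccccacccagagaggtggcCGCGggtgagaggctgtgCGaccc
The Scn8a window held 38 CpG pairs and 70.0% G and C, the Scn2a1 window 3 pairs and 33.0%, and the Scn9a window 9 pairs and 57.3%. The medians of 32851 RefSeq promoter windows were 7 pairs and 52.67% G and C. A second Scn2a1 window lay further downstream, at chr2:65668436-65668735, with 9 pairs and 47.7%, and a second Scn8a window, at chr15:100936021-100936320, had 12 pairs and 53.3%. The letters TGACGTCA (CRE), TGANTCA (AP-1), CACGTG (E-box) and the RE1 core motif were searched on both strands and were found in none of the 6 windows. TATAAA stood 84 bases before the start in the downstream Scn2a1 window, and 13.6% of all promoter windows hold it. GGGCGG (GC box) stood on the opposite strand 126 bases before the start of Scn7a, and 35.7% of all windows hold it.

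Scn8a and Scn2a1 were the most abundant of the 6 alpha subunit transcripts when counts were scaled to length. Over 25 libraries the median level per kb of exon was 24.7 CPM for Scn8a and 24.5 for Scn2a1. Their order differed by age: Scn8a was above Scn2a1 in 14 of 14 libraries at P24 and in 3 of 11 at P14. With the length of the longest coding transcript in place of all exons, the order of the medians turned, at 34.1 for Scn8a and 35.1 for Scn2a1, and Scn8a was above in 13 of 14 libraries at P24 and in 0 of 11 at P14. Scn1a followed at 9.11 CPM per kb and Scn3a at 5.99. Scn9a, at 0.578, and Scn7a, at 0.277, were far lower, and their ranges over libraries, 0.156 to 0.799 and 0.126 to 0.531 CPM per kb, overlapped.

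As shares of the length-scaled sum of the 6 transcripts in a library, Scn8a took 35.7% to 44.9%, Scn2a1 32.0% to 41.7%, Scn1a 11.1% to 16.8% and Scn3a 7.49% to 9.83%. Scn9a took 0.329% to 1.16% and Scn7a 0.198% to 0.773%. The ranges of the Scn1a and Scn3a shares did not overlap, while those of Scn8a and Scn2a1 did. Scn7a rested on 15 to 83 counts a library and Scn9a on 39 to 217, which limits the precision of both, against at least 597 counts for Scn3a and 2538 for Scn2a1.

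**Figure D1:**
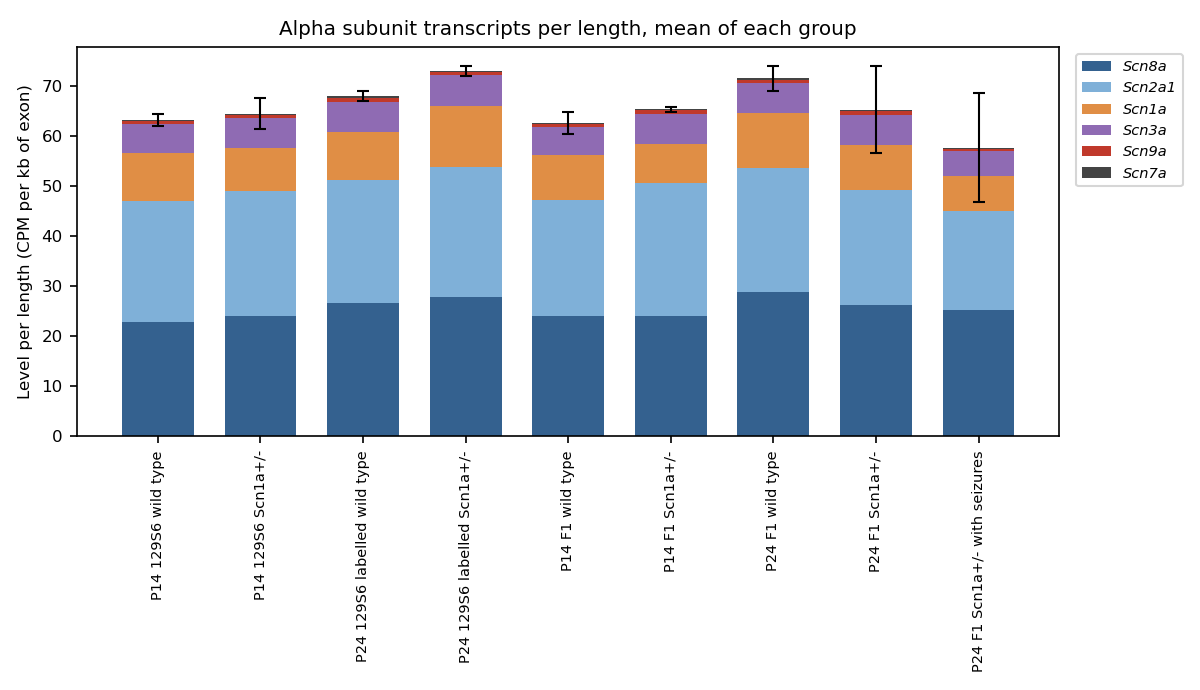
Stacked bars give the mean level per length (CPM per kb of exon, vertical axis) of the 6 alpha subunit transcripts in each of the 9 groups, and the error bar is the SD of their sum over the 2 or 3 libraries of a group. Scn8a and Scn2a1 fill most of every bar, and the lowest bar is the seizure group, at 57.6 CPM per kb against 71.5 in P24 F1 wild type.

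Between P14 and P24, Scn8a rose in both backgrounds and no other of the 5 genes passed the test in either. At P14 in 129S6 it stood at 360 and 357 CPM in wild type and at 399.8, 378 and 355 in Scn1a+/-. At P24 it stood at 427, 415 and 416 CPM in wild type and at 438, 446 and 429 in Scn1a+/-, as labelled. All 6 libraries at P24 were above all 5 at P14. On the log2 scale the rise was 0.22 ± 0.06 (approximate SE; 95% interval 0.09 to 0.35; edgeR adjusted p = 0.00687), a level 16.4% higher.

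In F1 at P14, Scn8a stood at 357, 391 and 382 CPM in wild type and at 371, 388 and 372 in Scn1a+/-. At P24 the wild-type libraries had 467, 445 and 446 CPM and the Scn1a+/- libraries 448 and 379. Here the ages overlapped through the library at 379 CPM, which lay below 3 of the P14 libraries. The log2 fold change was 0.20 ± 0.06 (95% interval 0.07 to 0.33; edgeR adjusted p = 0.0123), a level 14.7% higher. Without the P24 F1 Scn1a+/- library at 448 CPM it was 0.14 (adjusted p = 0.121). So 1 of 5 genes was called in each background, against 34.3% of all genes tested in 129S6 and 38.4% in F1. Called higher were 17.3% and 19% of all genes.

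Scn2a1, which encodes Nav1.2, ran from 306 to 356 CPM over the 5 P14 libraries of 129S6 and from 313 to 346 over the 6 at P24. Its log2 fold change was 0.04 (95% interval -0.11 to 0.19; adjusted p = 0.729) in 129S6 and -0.06 (95% interval -0.22 to 0.09; adjusted p = 0.546) in F1. The ages overlapped in both backgrounds. Scn3a, the channel best known from early development, gave log2 fold changes of 0.05 (95% interval -0.06 to 0.15) in 129S6 and 0.05 (95% interval -0.05 to 0.16) in F1. Its libraries outside the seizure group all lay between 71.6 and 87.6 CPM. Scn9a gave 0.10 and 0.11, and Scn7a 0.54 (95% interval 0.02 to 1.07; adjusted p = 0.103) and 0.30 (95% interval -0.22 to 0.81). Neither was called. No gene of the 5 was called in the test of whether the age difference itself differed between F1 and 129S6, where 0.00628% of all genes tested were called, and for Scn8a that difference was -0.02 (95% interval -0.20 to 0.16).

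**Figure D2:**
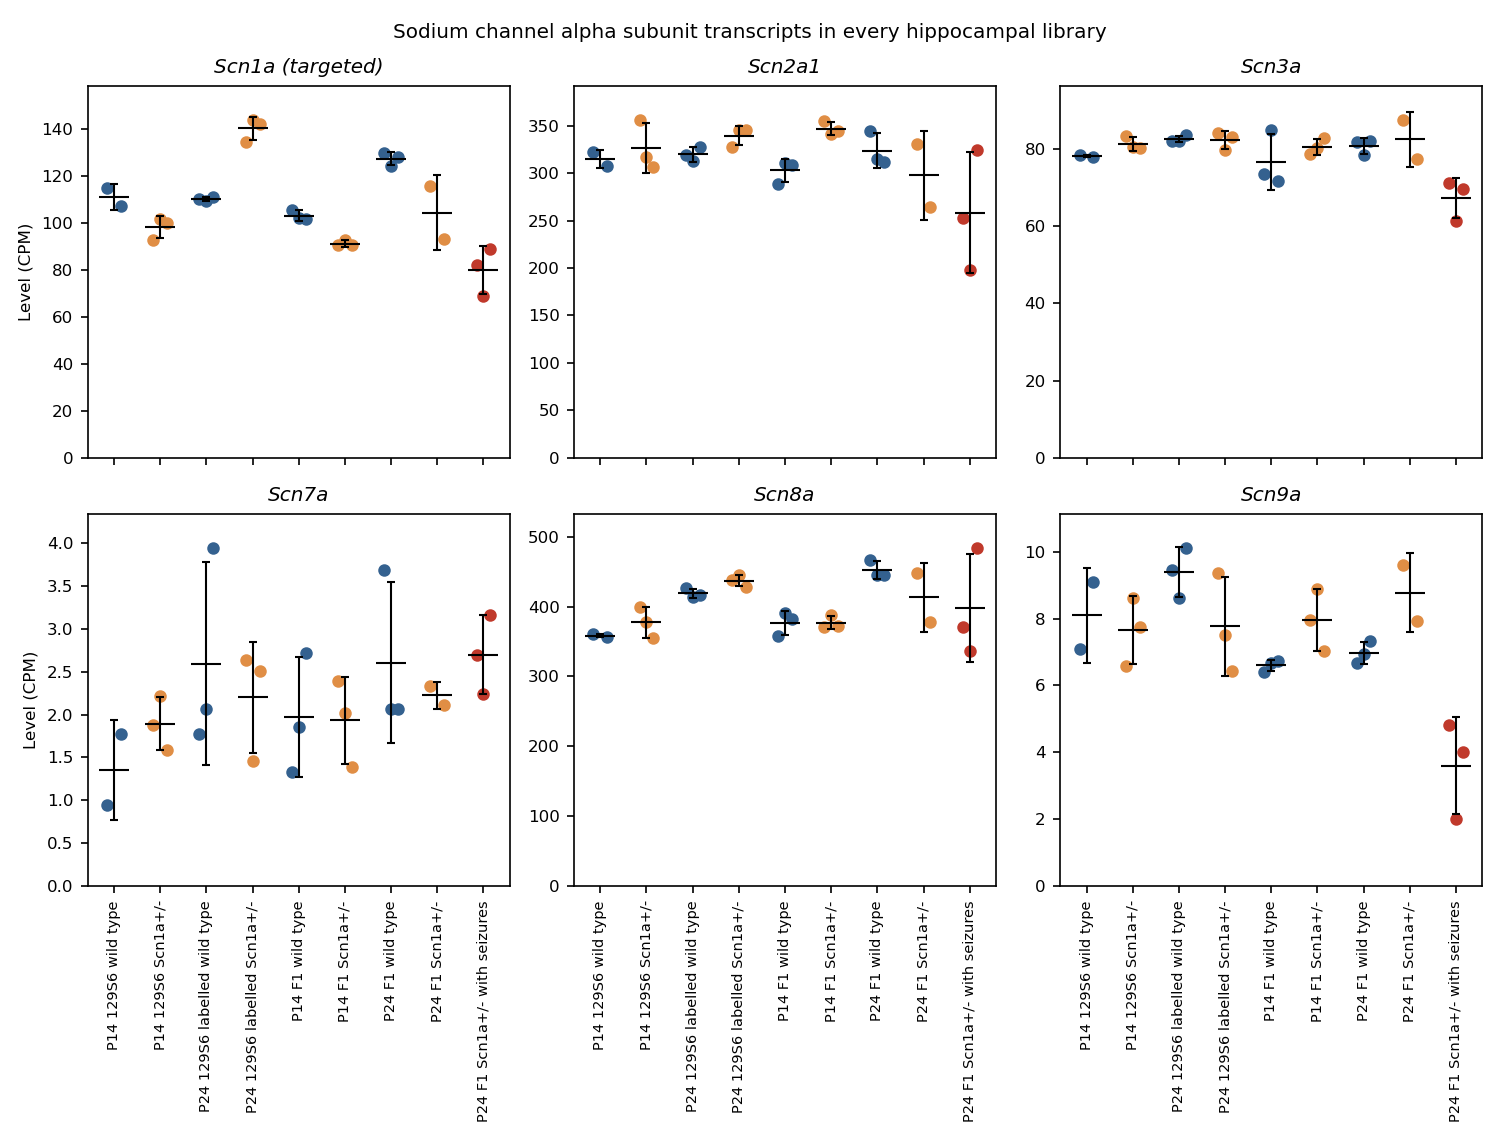
Each panel gives the level of 1 transcript (CPM, linear axis from 0) in every library by group, with the group mean and SD in black. Blue points are wild type, orange Scn1a+/- and red the seizure group, with the P24 129S6 groups coloured as labelled. Outside the seizure group Scn8a is higher at P24 than at P14 in all but the P24 F1 library at 379 CPM, Scn2a1 and Scn3a overlap between ages, and Scn9a is lowest in the 3 seizure libraries.

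The balance between Scn2a1 and Scn8a was then read within each library, as the log2 ratio of their counts, which needs no scaling to depth. A value of 0 means equal counts, and more negative values mean relatively more Scn8a. In 129S6 the ratio ran from -0.25 to -0.16 at P14 (mean -0.20 ± 0.04, SD, n = 5) and from -0.42 to -0.31 at P24 (mean -0.38 ± 0.04, n = 6). The ages did not overlap, and the difference was -0.18 (exact permutation test, two-sided, p = 0.00216, the smallest p this design allows). The ratio of the counts was thus 11.5% lower at P24.

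In F1 the ratio ran from -0.33 to -0.07 at P14 (mean -0.22 ± 0.11, n = 6) and from -0.52 to -0.44 at P24 (mean -0.48 ± 0.04, n = 5), again without overlap. The difference was -0.26 (exact permutation test, two-sided, p = 0.00216, the smallest p this design allows). With wild-type libraries alone it was -0.17 in F1 and, as labelled, -0.20 in 129S6. With the opposite naming of the P24 129S6 libraries, whose Scn1a level goes against their labels, it was -0.18 in 129S6, and in all 3 cases the groups hold too few libraries for a p below 0.1. The ratio of Scn3a to Scn2a1, by contrast, overlapped between ages, with differences of 0.01 in 129S6 (exact permutation test, p = 0.857) and 0.11 in F1 (exact permutation test, p = 0.141). Adjusted by Benjamini-Hochberg over the 6 ratio comparisons made here, the exact permutation p of the Scn2a1 to Scn8a age differences was 0.00649 in each background.

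Cell type markers moved with age as well. All 6 markers of immature neurons were lower at P24 and all 6 of mature oligodendrocytes higher in both backgrounds. Of 7 dentate granule markers, 5 were higher and 1 lower in 129S6, and 6 higher and 0 lower in F1. Of 10 pyramidal markers, 4 were higher and 1 lower in 129S6, and 3 higher and 2 lower in F1. For comparison, 34.3% of all genes tested were called between the ages in 129S6 and 38.4% in F1. Of all genes, 17.3% and 19% were called higher. The summed immature neuron level was 659 to 781 CPM over the P14 libraries and 328 to 382 over the P24 libraries outside the seizure group. The part of these cells in the rise of Scn8a was not tested.

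Loss of a copy of Scn1a raises the question of whether another alpha subunit is raised in its place. None of the 5 genes was called between Scn1a+/- and wild type in P14 129S6, P14 F1, P24 F1 or, as labelled, P24 129S6, and 0% of all genes tested were called in each. An unadjusted edgeR p under 0.05 was reached by 391, 724, 889 and 471 genes, none of them among the 5, and DESeq2 called 0 genes in each. Without the seizure libraries in the fit, 200 genes were called in P24 F1, 92 of them higher and none of them among the 5. Averaged over the 3 comparisons whose Scn1a level did not go against the labels, an alternative added after the data were seen, the intervals were narrower for the abundant genes than for the scarce ones. Scn8a gave -0.02 (95% interval -0.13 to 0.09), Scn2a1 0.04 (-0.09 to 0.17) and Scn3a 0.05 (-0.04 to 0.14) on the log2 scale. For Scn2a1 the upper limit is a level 12.5% higher, for Scn3a 10.1% and for Scn8a 6.24%. Scn9a gave 0.17 (-0.07 to 0.41) and Scn7a 0.06 (-0.37 to 0.50), so larger differences remain within the intervals of these 2 scarce transcripts. Scn1a itself was at -0.22 (-0.31 to -0.12), with averages of 97.8 against 114 CPM, and was not called among all genes either. Scn2a1 and Scn8a averaged 314 and 396 CPM in wild type. A rise as large in CPM as the fall of Scn1a therefore lies within the intervals of both.

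In P14 F1, Scn2a1 stood at 289, 311 and 309 CPM in wild type and at 355, 341 and 345 in Scn1a+/-. The groups did not overlap, yet the log2 fold change of 0.20 (95% interval -0.01 to 0.40; edgeR adjusted p = 0.994) was not called among all genes. That interval depends on the fit, since with only the compared groups the unadjusted p was 7.51e-05 in place of 0.0634, and the adjusted p was 0.11. Scn8a averaged 377 CPM in both of these groups, and the log2 ratio of Scn2a1 to Scn8a was -0.12 ± 0.06 (SD, n = 3) in Scn1a+/- and -0.31 ± 0.01 (n = 3) in wild type, a pair of groups picked after their values were seen. In P24 F1 the same genotypes had -0.48 ± 0.06 (n = 2) and -0.48 ± 0.04 (n = 3), and in P14 129S6 -0.21 ± 0.04 (n = 3) and -0.19 ± 0.03 (n = 2). The change of the Scn2a1 genotype difference from P14 to P24 in F1 was -0.32 (95% interval -0.63 to -0.01; adjusted p = 0.877).

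The P24 129S6 libraries gave log2 differences of 0.09 for Scn2a1, 0.06 for Scn8a, -0.27 for Scn9a and -0.16 for Scn7a as labelled, none of them called. In the authors' deposited table of normalized values, whose columns carry the opposite genotype for these 6 libraries, the log2 ratios of the Scn1a+/- to the wild-type mean were -0.34 for Scn1a, -0.08 for Scn2a1, -0.06 for Scn8a, 0.01 for Scn3a, 0.28 for Scn9a and 0.24 for Scn7a. These are the same counts rescaled, so the opposite naming turns the sign and is no second measurement. Scn2a1, Scn8a and Scn3a differed by less than 0.1 on the log2 scale.

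None of the 5 genes was called between strains, none had an unadjusted p under 0.05 there, and DESeq2 called 0 of them. Between F1 and 129S6, 3.7% of all genes tested were called at P14 and 6.33% at P24. For Scn8a the log2 fold change was 0.03 at P14 (95% interval -0.09 to 0.16) and 0.01 at P24 (-0.11 to 0.14), and for Scn2a1 0.02 (-0.14 to 0.17) and -0.09 (-0.24 to 0.07). Scn9a gave -0.13 (-0.42 to 0.17) and -0.12 (-0.40 to 0.16).

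In the mice with seizures, 3 of the 5 transcripts were lower than in P24 F1 wild type: Scn9a, Scn3a and Scn2a1. For comparison, 22.5% of all genes tested were called in either direction and 10.1% were called lower. Against Scn1a+/- mice without seizures 2 of the 5 were called, both lower, against 15.7% of all genes called and 7% called lower. Both comparisons use the same 3 seizure libraries. Their standard errors and intervals rest on a spread shared by all 9 groups. The seizure libraries varied more among themselves than those of other groups, so these intervals may be too narrow.

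Scn9a had the most negative log2 fold change of the 5. The seizure libraries stood at 4.81, 1.98 and 3.99 CPM, the wild-type libraries at 6.68, 6.94 and 7.33 and the Scn1a+/- libraries without seizures at 9.61 and 7.94. Every seizure library was below every other library of the series, whose lowest Scn9a value was 6.41 CPM, and the lowest seizure value still rested on 39 counts. Scn9a fell by 0.94 ± 0.19 on the log2 scale against wild type (95% interval -1.33 to -0.56; edgeR adjusted p = 0.000338), a mean level of 3.59 against 6.98 CPM. Against Scn1a+/- without seizures it fell by 1.26 ± 0.21 (95% interval -1.70 to -0.82; edgeR adjusted p = 5.59e-05), a level 58.3% lower. Only 1.2% and 0.509% of all genes tested had a lower log2 fold change in these comparisons. Without the library at 1.98 CPM the fall against wild type was 0.66 (adjusted p = 0.00424). The gene model Gm13629 overlaps Scn9a, and since the library kit does not mark strand their reads cannot be told apart where they overlap. Gm13629 stood at 1.81 CPM in the seizure group and 2.32 in wild type.

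Scn3a was lower by a smaller and more even amount. The seizure libraries stood at 71.1, 61.4 and 69.5 CPM, the wild-type libraries at 81.9, 78.4 and 82.2 and the Scn1a+/- libraries without seizures at 87.6 and 77.4, with no overlap. Scn3a fell by 0.26 ± 0.07 against wild type (95% interval -0.40 to -0.12; edgeR adjusted p = 0.00427), a level 16.6% lower. Against Scn1a+/- without seizures it fell by 0.29 ± 0.08 (95% interval -0.44 to -0.13; edgeR adjusted p = 0.00754), a call that was lost without the library at 87.6 CPM (-0.22, adjusted p = 0.132). With only the compared groups in the fit, neither Scn3a difference was called (adjusted p = 0.0779 and 0.31).

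Scn2a1 varied more within the seizure group, with an SD of 63.6 CPM against 18.2 in wild type, which the shared spread does not reflect. Its libraries stood at 252, 198 and 325 CPM, against 345, 315 and 312 in wild type and 331 and 264 in Scn1a+/- without seizures. The seizure library at 325 CPM lay within the wild-type range and the others below it. Scn2a1 fell by 0.33 ± 0.10 against wild type (95% interval -0.53 to -0.12; edgeR adjusted p = 0.0172), a level 20.2% lower. The call was lost without the seizure library at 198 CPM (-0.17, adjusted p = 0.178) or without the wild-type library at 345 CPM (-0.30, adjusted p = 0.0625), or with only the compared groups in the fit (adjusted p = 0.213). Against Scn1a+/- without seizures the log2 fold change was -0.20 (95% interval -0.43 to 0.03; adjusted p = 0.246).

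Scn8a was high in the same seizure library as Scn2a1. The seizure libraries stood at 371, 337 and 485 CPM and the wild-type libraries at 467, 445 and 446. The log2 fold change of -0.19 (95% interval -0.36 to -0.02; edgeR adjusted p = 0.108) was not called, and without the library at 485 CPM it was -0.37 (adjusted p = 1.47e-05). Against Scn1a+/- without seizures it was -0.06 (95% interval -0.25 to 0.14), and without the same library -0.24 (adjusted p = 0.0129). Scn7a, at 2.70, 2.24 and 3.17 CPM against 3.70, 2.06 and 2.06 in wild type, overlapped and gave 0.05 (95% interval -0.52 to 0.63). Whether the members differed from each other in these changes was tested only through the ratios that follow.

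**Figure D3:**
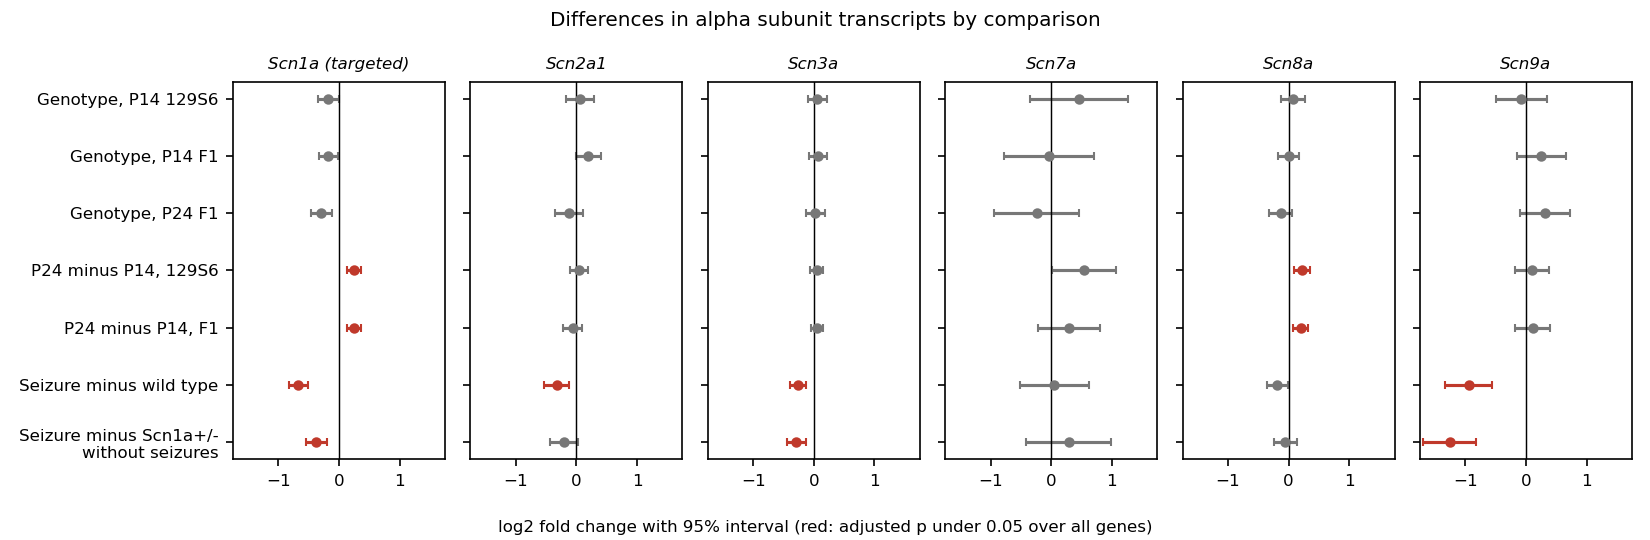
Points give log2 fold changes and bars their 95% intervals (horizontal axis) for Scn1a and the 5 other alpha subunits in 7 comparisons, with calls in red. In the genotype rows no interval is red, Scn8a is red in both age rows, and Scn9a stands at -0.94 and -1.26 in the seizure rows.

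Within libraries, the Scn2a1 to Scn8a log2 ratio ran from -0.77 to -0.56 in the seizure group and from -0.52 to -0.44 in P24 F1 wild type. The groups did not overlap, and the difference was -0.15 (exact permutation test, two-sided, p = 0.1, the smallest p that 3 against 3 allows). The Scn3a to Scn2a1 ratio overlapped, with a difference of 0.09 (exact permutation test, p = 0.6). Its values spread further in the seizure group, from -2.22 to -1.69, than in wild type, from -2.07 to -1.92. The length-scaled sum of the 6 alpha subunits was 57.6 ± 11.0 CPM per kb (SD, n = 3) in the seizure group against 71.5 ± 2.55 (n = 3) in wild type, a log2 difference of -0.33 (exact permutation test, p = 0.1, the smallest possible). The seizure libraries ran from 47.5 to 69.2 CPM per kb and lay below all 3 wild-type libraries, of which the lowest had 69.8. The Scn1a+/- libraries without seizures had 71.4 and 59.0, the latter within the seizure range. The sum holds the targeted Scn1a, and without it the difference from wild type was -0.27 (exact permutation test, p = 0.3).

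**Figure D4:**
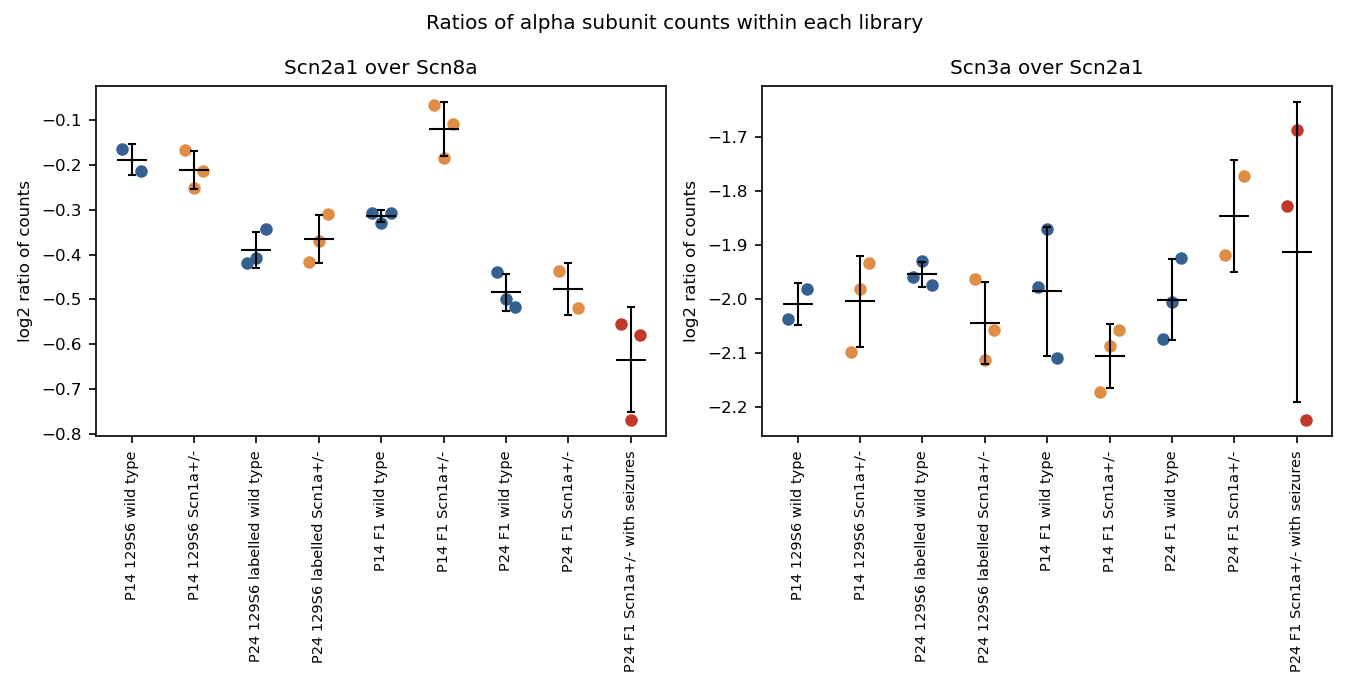
Each point is 1 library and gives the log2 ratio of counts (vertical axis) of Scn2a1 over Scn8a (left) or Scn3a over Scn2a1 (right), with the group mean and SD in black and colours as for the levels by group. The left ratio is lower at P24 than at P14 in both backgrounds and lowest in the seizure group, while the right ratio overlaps between ages.

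Against Scn1a+/- F1 mice at P14, before the age of the seizure group, 3 of 5 genes were called, all lower, where 30.6% of all genes tested were called and 14.7% called lower. Scn9a fell by 1.12 ± 0.21 (edgeR adjusted p = 7.09e-05), Scn2a1 by 0.43 ± 0.10 (adjusted p = 0.00146) and Scn3a by 0.26 ± 0.07 (adjusted p = 0.00461) on the log2 scale. With only the compared groups in the fit, the Scn2a1 and Scn3a calls were lost (adjusted p = 0.0552 and 0.0788). Age and seizures cannot be told apart in that comparison. Scn8a, which was higher at P24 than at P14 in the mice without seizures, gave 0.08 (95% interval -0.09 to 0.25).

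The cell markers of the seizure group also moved. The summed level of 6 astrocyte markers was 3727 to 4698 CPM in the seizure group and 1935 to 2103 in P24 F1 wild type, with Gfap at 2917 against 587 CPM. Of the 6, Gfap, Aqp4 and Aldh1l1 were called higher and Slc1a3 and Gja1 lower. Of 7 dentate granule cell markers 4 were lower and 2 higher, and of 10 pyramidal markers 2 were lower and 3 higher. Of 6 oligodendrocyte markers 5 were lower, and of 7 interneuron markers only Gad2 was called, higher. Over all genes tested, 22.5% were called in the seizure group against wild type and 10.1% were called lower. The summed pyramidal level overlapped, at 1146 to 1407 CPM against 1208 to 1347, as did the dentate level, at 402 to 491 against 473 to 503. The oligodendrocyte sum also overlapped, at 9882.5 to 15744.9 CPM against 13674.8 to 15758.5. Immature neuron markers summed to 425 to 531 CPM against 363 to 382, with 3 of 6 called higher and 0 lower. Neocortical markers summed to 185 to 217 CPM against 145 to 158, with 1 of 6 called higher and 1 lower. The 6 peripheral sensory neuron markers summed to 14.1 to 15.9 CPM in the seizure group and 11.6 to 14.3 in wild type. No marker of these lists was at 0 throughout the seizure group or wild type. The part of these cell types in the falls of Scn9a, Scn3a and Scn2a1 was not tested.

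Of the 3 genes inside the cluster that encode no channel, Csrnp3, which lies beside Scn2a1, fell by 0.36 ± 0.07 on the log2 scale in the seizure group against wild type (edgeR adjusted p = 0.000327). Galnt3 gave 0.22 and Ttc21b -0.09, and neither was called.

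In the seizure group Nalcn, the sodium leak channel, fell against wild type by 0.37 ± 0.09 (edgeR adjusted p = 0.00369) and Scn1a by 0.67 ± 0.07 (adjusted p = 2.67e-08).

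The beta subunits are single-span partners that attach to alpha subunits and alter their gating and placement. Scn2b, Scn3b and Scn4b fell in the seizure group against wild type. Scn4b went from 21.0 to 8.26 CPM (-1.35 ± 0.13, edgeR adjusted p = 9.37e-10), Scn3b from 358 to 235 CPM (-0.61 ± 0.09, adjusted p = 2.08e-06) and Scn2b from 220 to 161 CPM (-0.45 ± 0.08, adjusted p = 4.19e-05). These 3 genes were also called lower against Scn1a+/- without seizures. Over all genes tested, 10.1% were called lower against wild type and 7% against Scn1a+/- without seizures.

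With age, Scn4b rose in both backgrounds, by 0.39 ± 0.10 on the log2 scale in 129S6 and 0.44 ± 0.10 in F1. Scn2b was called in 129S6 (0.23) and not in F1 (0.10), and the difference between backgrounds was not tested.

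The FGF homologous factors bind the cytoplasmic tail of the alpha subunits and set their inactivation. Fgf14 was the only one of 4 called in the seizure group, lower by 13.5% against wild type (-0.21 ± 0.07, edgeR adjusted p = 0.0304) and by 16.3% against Scn1a+/- without seizures. In these comparisons 22.5% and 15.7% of all genes tested were called. With age, Fgf13 fell in both backgrounds, from 549 to 390 CPM in 129S6 (-0.49 ± 0.04, adjusted p = 1.5e-10) and from 528 to 353 CPM in F1 (-0.58 ± 0.05, adjusted p = 4.68e-12). Fgf12 fell in F1 (-0.20 ± 0.05, adjusted p = 0.00179).

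The scaffold of the axon initial segment and node holds these channels in place, and 4 of its 11 genes fell in the seizure group against wild type, where 10.1% of all genes tested were called lower, with a median log2 fold change of -0.14 over the list against 0.01 over all genes. They were Cntnap1, the Caspr protein of the paranode (-0.60 ± 0.08, edgeR adjusted p = 9.85e-07), Cntnap2 (-0.48 ± 0.09, adjusted p = 0.000122), the spectrin Sptbn1 (-0.26 ± 0.06, adjusted p = 0.00186) and the matrix protein Tnr (-0.31 ± 0.09, adjusted p = 0.0123). Against Scn1a+/- without seizures 2 of the 11 were called, Cntnap1 and Sptbn1, both lower. For comparison, 15.7% of all genes tested were called there and 7% were called lower. Cntnap2 gave -0.26 (adjusted p = 0.0797) and Tnr -0.15 (adjusted p = 0.361) in that comparison. Ank3, which encodes ankyrin-G, the anchor of Nav channels at the initial segment, gave -0.05 and Sptbn4 -0.09, and neither was called. With age Cntnap1 rose in both backgrounds (0.48 ± 0.06 and 0.57 ± 0.06), and Ank2 and Cntn1 fell in both. Nrcam rose in 129S6 (0.23 ± 0.07) and Cntnap2 fell in F1 (-0.33 ± 0.07). In F1 Ank3 (0.17 ± 0.05, adjusted p = 0.0039) and Sptbn4 (0.22 ± 0.05, adjusted p = 0.00138) also rose.

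Of 22 RNA-binding proteins, kinases and ubiquitin ligases known or proposed to act on sodium channels or their transcripts, Nova1 (-0.34 ± 0.08, edgeR adjusted p = 0.00132) and Camk2a (-0.31 ± 0.07, adjusted p = 0.00117) fell in the seizure group against wild type, and Celf4 (0.16 ± 0.06, adjusted p = 0.038) and Ptbp1 (0.28 ± 0.10, adjusted p = 0.042) rose. Against Scn1a+/- without seizures Nova1 and Camk2a were again called lower, while Celf4 (0.14, adjusted p = 0.145) and Ptbp1 (0.30, adjusted p = 0.0909) were not called. Celf4 encodes an RNA-binding protein that acts on Scn8a mRNA. Against wild type 2 of the 22 were called higher and 2 lower. Over all genes tested, 22.5% were called there in either direction and 10.1% were called lower. In the comparison with Scn1a+/- mice without seizures 2 were called, both lower, against 15.7% of all genes called and 7% called lower. The list median was -0.01 against wild type. With age 4 of the 22 rose and 5 fell in 129S6, and 6 rose and 10 fell in F1, against 34.3% and 38.4% of all genes tested called in either direction and 17.3% and 19% called higher. Among them Celf4 rose in both (0.26 ± 0.04, adjusted p = 1.28e-05, and 0.32 ± 0.04, adjusted p = 3.87e-07). Nedd4l, a ubiquitin ligase, rose in both (0.32 ± 0.06 and 0.25 ± 0.06), Fyn, a tyrosine kinase, fell in both (-0.35 ± 0.04 and -0.39 ± 0.04) and so did Crmp1 (-0.51 ± 0.08 and -0.65 ± 0.08). No FGF homologous factor, scaffold gene or gene among these 22 was called in any genotype comparison.

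The genes whose log2 CPM followed each member most closely over the 25 libraries were taken from 10920 genes with a mean of at least 3 on that scale. For Scn2a1 they were Syt1 (Pearson r = 0.94), Fam131a (0.93) and Dync1i1 (0.93). For Scn8a they were Dnm1 (0.94), Grina (0.94) and Ak5 (0.93), and for Scn9a Ccdc85a (0.91), Acvr2a (0.89) and Camk2g (0.88). Among those closest to Scn3a were Kcnt2 (0.87) and Gprasp2 (0.86), and Scn7a, with few counts, reached 0.72 with Usp1, 0.71 with Arpc1a and 0.70 with Ajap1. These values share the libraries and their scaling, and the 3 seizure libraries are among them.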

How the data were processed

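The authors deposited raw gene counts, 1 table per library, and 1 table of normalized signal. Per the submitters' processing notes the tools were CASAVA, TopHat2 2.1.0 and HTSeq 0.6.1p1 with build mm10, while the sources used here name neither gene annotation nor strand setting. Per the labels' protocols, TRIzol RNA went into TruSeq v2 libraries, which are unstranded. The deposited normalized signal equals the counts times 1 factor per library (within 0.1% for genes of at least 50 counts). Its 25 columns each matched 1 library, 19 in the group of the same title and 6, all P24 129S6, in the other genotype, and it served only for that check and the values named as the authors'. Groups follow the titles and characteristics.

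From the deposited counts, edgeR 4.0.16 (limma 3.58.1, R 4.3.3) fitted 1 quasi-likelihood model with 9 group coefficients, TMM factors and filterByExpr (minimum count 10) to 25 libraries, which left 15912 genes, 16 residual degrees of freedom and a common biological coefficient of variation of 7.57%. Calls needed an adjusted p (Benjamini-Hochberg, over all genes tested) under 0.05. In age and strain contrasts both genotypes weigh equally and the seizure libraries have no weight. Standard errors are approximate, from the fold change and its F statistic. Ratios and sums were tested with exact two-sided permutation tests over libraries. Exon lengths came from GENCODE vM39 and positions and promoters from RefSeq tables. The fit was tested on simulated data with the same spread in all groups and with larger changes than most described here. That setting does not cover the wider spread of the seizure group, so it cannot check those calls. Libraries of a group differed beyond counting noise (chi-square per degree of freedom of at least 2.42), so none was a copy of another. That value cannot tell separate pools from separate preparations of the same pool.

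The members and gene lists were chosen with earlier results of these data known. Named genes are up to 4 called genes with the smallest p in each list, plus others the text describes for their place or role, which were chosen after their values were seen. Some genes that the lists or the rule name are not reported here. Alternatives were DESeq2 1.42.0, RLE factors, no filter, fits of the compared groups alone or without the seizure libraries, and leaving out each library. For single genes they were read only for Scn1a and the 5 members. The calls of list, marker and neighbouring genes were not checked under them.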

Additional observations from a re-analysis of the deposited data

How the results depend on the processing

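The 5 genes' log2 fold changes were recomputed 1075 times, of which 1063 kept their side of the threshold and, where called, their direction, 9 lost a call and 3 gained one. In 61 the sign changed, all among values called in neither fit, and these are counted with the 1063. With only the compared groups in the fit, 1 gene, Scn9a, was called in each of the 3 comparisons with the seizure group, in place of 3 against wild type, 2 against Scn1a+/- without seizures and 3 against P14. Over all genes the calls went from 3579 to 1615, from 2502 to 633 and from 4869 to 2613, while for age they went from 5459 to 6425 in 129S6 and from 6107 to 7018 in F1. Chi-square per degree of freedom between libraries of a group was 18.3 to 40.2 in the seizure group and 2.42 to 8.59 in the others, and its part in these changes was not tested. Without the seizure libraries the strain calls over all genes went from 588 to 991 at P14 and from 1008 to 2104 at P24. DESeq2, RLE factors and no filter kept the counts of these 5 genes called against the seizure group. Leaving out each library gave 2 to 4 called genes against wild type, 1 to 4 against Scn1a+/- without seizures and 0 to 1 for age in F1. The Scn2a1 over Scn8a age difference with wild-type libraries only was -0.17 in F1, -0.20 in 129S6 as labelled and -0.18 with the opposite naming of the P24 129S6 libraries, added after the data were seen (p = 0.1 in each, exact permutation test, the smallest possible). It ran from -0.19 to -0.17 and from -0.29 to -0.23 when each library was left out. The Scn3a over Scn2a1 difference changed sign in several settings: for age in 129S6 it ran from -0.016 to 0.0296 when each library was left out and was -0.0348 with the opposite naming, for age in F1 it was -0.0154 with wild-type libraries only and 0.0653 to 0.142 when each was left out (exact permutation p of 0.0476 to 0.319), and for seizures it was -0.0673 against Scn1a+/- without seizures and -0.0246 to 0.244 when each was left out. The cause was not tested. The summed alpha subunit difference ran from -0.47 to -0.20 when each library was left out. Scn7a, at 15 to 83 counts a library, is the member that depth limits most. No paired analysis was possible because titles carry 1 running number per library, shared by no groups.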

Other observations

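The channel genes Scn4a, Scn10a and Scn11a, the skeletal muscle channel and further channels of sensory neurons, had at most 4, 6 and 4 counts in any library and 37, 20 and 31 over all 25 libraries. Scn7a and Scn9a, also known from sensory neurons, had 873 and 2807 counts.

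The 2 libraries of P24 F1 Scn1a+/- mice without seizures stood apart in the same direction for all 5 genes and Scn1a. The library with the higher Scn2a1 level, 331 against 264 CPM, also had more Scn8a (448 against 379 CPM), Scn3a (87.6 against 77.4), Scn9a (9.61 against 7.94), Scn7a (2.34 against 2.11) and Scn1a (115 against 92.9).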
